A study of Macaca mulatta with 13 samples.

Results

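IFNG, LTA, LTB, TNF and IL10 encode the cytokines interferon gamma, lymphotoxin alpha, lymphotoxin beta, tumour necrosis factor and interleukin 10. These 5 of 34628 measured genes were chosen by name, and their RNA is described here in single colon leukocytes of the rhesus macaque (Macaca mulatta), which served as a model for graft-versus-host disease (GVHD) in its acute form. In GVHD, T cells that come with a transplant of blood-forming cells attack the tissues of the recipient, and the gut is one of the organs affected. Per the labels' protocols, live cells of thawed tissue samples were sorted for CD45, which all leukocytes carry on their surface. In part of the transplanted samples the sort also parted cells of host and donor origin with an antibody to the MHC molecule MAMU-A001. Sorted cells were also negative for an antibody against CD45 that the protocols mark IVas. The labels name 13 libraries of the colon, made up of 4 host fractions, 2 donor fractions, 3 libraries that hold host and donor cells of animals with GVHD together, and 4 healthy controls from untransplanted animals. Libraries were made with versions v2 and v3 of a droplet kit that reads the 3′ end of each RNA. Which kit made which library, the conditioning of the recipients and any drug they received are not stated in the sources used.

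Interferon gamma is made by cytotoxic and helper T cells and NK cells, signals through IFNGR1 and IFNGR2, and switches on antigen presentation and macrophage killing. TNF, LTA and LTB belong to 1 family of ligands. TNF and the LTA homotrimer bind the receptors TNFRSF1A and TNFRSF1B, whereas LTA joined to LTB on the cell membrane binds LTBR, which shapes lymphoid tissue in the gut wall. IL-10 restrains inflammation through IL10RA and IL10RB, and its loss causes colitis in mice and in people. The genes LTB, TNF and LTA lie side by side among the protein-coding genes of the RefSeq annotation of the assembly T2T-MMU8v2.0, between LST1 and NFKBIL1, while IFNG has DYRK2 and IL26 as neighbours and IL10 has MAPKAPK2 and IL19. The genes' identifiers in the deposited table are ENSMMUG00000056408 for IFNG, ENSMMUG00000008843 for LTA, ENSMMUG00000008849 for LTB, ENSMMUG00000045654 for TNF and ENSMMUG00000023569 for IL10.

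Each barcode carries a number that tells its library, but no table used here ties the numbers to the labels. The libraries were therefore left unassigned, no comparison between host, donor and healthy cells was made, and no p-value is given. Values are counts of unique molecular identifiers (UMIs, each marking 1 captured RNA molecule) of a gene per 1000000 UMIs of the same cells (CPM). Intervals are exact 95% Poisson intervals for levels and exact Clopper-Pearson intervals for shares, and they cover counting error only. Libraries 4 and 6 shared 5323 of their deposited barcodes, against at most 55 for any of the 66 pairs of the libraries used (16 among kept cells), so library 4 (39 kept cells) was dropped and 12 libraries with 20567 kept cells remained. They held 3205412 to 19655788 UMIs each and 29 to 2858 kept cells. By the barcodes they share, the libraries fall into set 1 (libraries 1 to 7) and set 2 (libraries 8 to 13). Whether the sets differ in kit, run or group was not tested.

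T cells were gated by at least 3 UMIs of CD3D, CD3E and CD3G together, and B cells by at least 2 UMIs of MS4A1 and CD79A together. The T gate took 11698 cells with a median of 3152.5 UMIs, and the B gate took 4459 cells with a median of 3704. A further 1406 cells passed both gates, with a median of 8082 UMIs, and were left out of both. T cells were divided by the coreceptor RNAs into 3733 cells with CD8A and no CD4, 1956 with CD4 and no CD8A, 5675 with neither and 334 with both. Most T cells are thus in no single coreceptor class at this depth, and a cell with neither RNA may carry either protein.

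LTB was the most abundant of the 5 RNAs in T cells, at 536 CPM over all T cells (interval 529 to 542). It was followed by IFNG at 111.8 CPM (109 to 115), IL10 at 21.1 CPM (19.8 to 22.5), LTA at 13.3 CPM (12.3 to 14.4) and TNF at 9.69 CPM (8.81 to 10.6). These CPM levels have no length term, which fits a method that counts 3′ ends, but capture can differ between genes, so the order is one of counted RNA. The intervals of LTA and TNF do not overlap in the pooled cells, yet the ranges over libraries of LTA, TNF and IL10 all overlap. By the median over libraries the order of IL10 and LTA turns, with IL10 at 8.39 CPM and LTA at 11.7 CPM. LTB, IFNG and TNF (median 3.05 CPM) keep their rank in both readings. LTB RNA was found in 59.4% of T cells, IFNG in 16.3%, LTA in 4.56%, TNF in 3.09% and IL10 in 2.56%. After each cell was thinned to 1500 UMIs, the shares were 45.0%, 9.53%, 2.04%, 1.56% and 1.46%.

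The genes also differed in how unevenly T cells held their RNA. The 235 T cells with at least 5 IFNG UMIs held 45.9% of all IFNG UMIs, and the richest cell had 143. For IL10, 54 such cells held 59.7% of the UMIs, and the richest had 55. Pooled IL10 levels therefore rest on few cells, and a counting interval that treats each UMI as independent is too narrow for it.

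The cell classes outside the T gate differed in their levels of the 5 genes. IFNG was highest in T cells and cells gated by NK markers. B cells had 1.17 CPM (0.797 to 1.65), whereas 164 NK-marked cells had 94.1 CPM (71.1 to 122). The 1208 cells that passed no gate had 34.3 CPM (28.2 to 41.4), and the cells that passed both the T and B gates had 11.9 CPM (10.2 to 13.7). At 1500 UMIs a cell, 0.18% of B cells and 0.16% of plasma-marked cells had an IFNG UMI, against 9.53% of T cells. Plasma cells are not a usual source of IFNG, so their share serves as the background from free RNA. Before thinning they had a median of 9362.5 UMIs a cell, and 0.56% of them had an IFNG UMI against 16.3% of T cells. For LTB the plasma-marked cells gave 6.83 CPM and for LTA 0.45 CPM, both far below T cells. TNF in plasma-marked cells was 0.68 CPM and IL10 0.60 CPM. The NK-marked cells had LTB at 934 CPM (858 to 1015), above the 536 CPM of T cells. Their LTA and TNF were both at 26.9 CPM (15.4 to 43.7), on 16 UMIs each, against 13.3 and 9.69 CPM in T cells. Cells that passed no gate had LTB at 763 CPM, TNF at 25.8 CPM and LTA at 13.8 CPM. These pooled classes differ in their mix of libraries, and they were not compared inside libraries. Libraries 3 and 5, with LTB at 25.2 and 10.1 CPM in T cells, gave 394 and 587 T cells but 2 and 2 NK-marked cells. Libraries 1 and 2, with TNF at 1.70 and 1.63 CPM in T cells, gave 1656 and 2163 T cells but 40 and 35 cells of no gate.

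B cells carried both lymphotoxins. The B gate also takes antibody-secreting cells, since these keep CD79A, so it was split by MS4A1, the gene of the B-cell surface protein CD20; this split was chosen after the values were seen. The 3587 B cells with MS4A1 had LTB at 600 CPM, LTA at 35.8, TNF at 16.9, IL10 at 10.4 and IFNG at 1.76. The 872 without it had a median of 11910.5 UMIs, plasma-cell markers at 62856 CPM and LTB at 25.4 CPM. In the 6 libraries with enough MS4A1 B cells, LTB was lowest at 20.6 CPM in library 3 and highest at 1759 in library 2, with a median of 1047. LTA in the same cells ran from 19.2 to 55.4 CPM, a much narrower range, and TNF from 0 to 43.0 CPM, highest in library 11.

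IL10 had its highest level outside the lymphocytes. The 180 cells that passed both the myeloid gate (S100A8, S100A9, LYZ, CST3, AIF1, CD14) and the NK gate, which share expression of TYROBP, had IL10 at 299.5 CPM (275 to 326), and 37.8% of them (30.7 to 45.3) had an IL10 UMI. The same cells had IFNG at 0.54 CPM, TNF at 4.90 CPM and no LTA UMI. IL10 in them ranged over libraries from 0 to 629 CPM; it was 629 in the 27 such cells of library 5, 426 in 56 cells of library 8, 358 in 30 cells of library 12 and 12.3 in 14 cells of library 10. They were looked at as a class of their own after the values were seen.

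**Figure D1:**
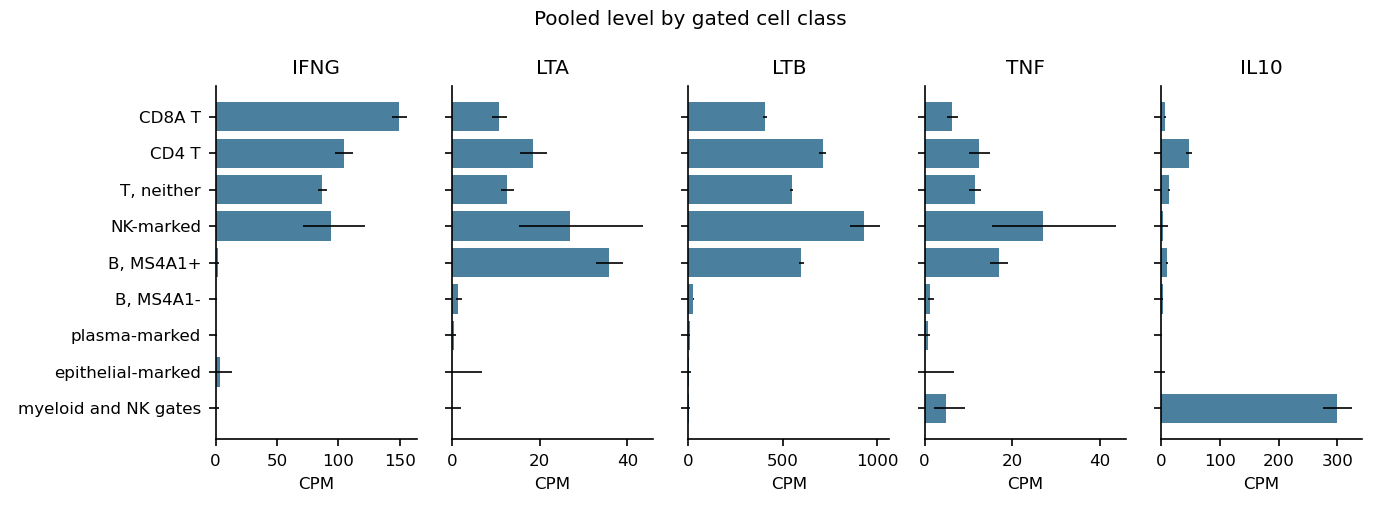
Pooled level of each gene (x axis, CPM, from 0, own scale per panel) in 9 gated cell classes (y axis), with exact 95% Poisson intervals. IFNG bars stand in the T and NK-marked classes, LTB and LTA also in B cells with MS4A1, and the longest IL10 bar (299.5 CPM) is that of cells passing the myeloid and NK gates.

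Across libraries, LTB in T cells spread far more than the other abundant member. LTB was 667, 689, 25.2, 10.1 and 0 CPM in libraries 1, 2, 3, 5 and 6, and 465, 958, 146, 726, 386 and 312 CPM in libraries 8 to 13. Libraries 3, 5 and 6 thus held almost no LTB RNA in T cells, while every library of set 2 had at least 146 CPM. Library 7, with 9 T cells, had no LTB UMI either. Low LTB was shared by the B cells with MS4A1 of library 3 (20.6 CPM), of which there were 1336. Over the 10 libraries with at least 100 T cells, the highest level of LTB was 95.1 times the lowest. Of 1927 genes with a median of at least 50 CPM, 36 (1.87%) had a wider span, and the median span was 3.502 times.

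Other genes were low in the same libraries. TGFB1, the gene of another cytokine, was at 8.39 and 3.82 CPM in T cells of libraries 3 and 5 and between 177 and 631 CPM in the 8 others. EMP3 was at 7.63 and 1.04 CPM against 340 to 1132, and MAP2K2 at 6.87 and 1.74 CPM against 224 to 479. These 3 genes were chosen after their values were seen. Of the 36 genes with a wider span than LTB, 9 were lowest in library 3, 11 in library 5 and 16 elsewhere. Why these RNAs were low in these libraries was not tested.

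TNF divided the libraries in another way than LTB, since it was also low in libraries 1 and 2, where LTB was high. It was 1.70, 1.63, 3.05, 0.35 and 0 CPM in T cells of libraries 1, 2, 3, 5 and 6, and 19.5, 13.5, 0.95, 32.9, 12.6 and 3.87 CPM in libraries 8 to 13. The range of set 1 (0 to 3.05 CPM) thus lay below 5 of the 6 libraries of set 2, with library 10 as the exception. The 0 is that of library 6, whose 38 T cells allow up to 30.4 CPM. Library 3 rests on 4 UMIs, and its interval (0.83 to 7.81 CPM) overlaps that of library 13 (2.06 to 6.63 CPM). The median was 1.63 CPM in set 1, library 6 included, and 13.04 CPM in set 2.

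IFNG did not divide by barcode set. Its level was 138.8, 76.1, 38.1, 166.0 and 107 CPM in libraries 1, 2, 3, 5 and 6 and 14.8, 48.2, 68.5, 161.1, 168.6 and 64.7 CPM in libraries 8 to 13. The highest libraries (12, 5 and 11) belong to both sets, and the lowest was library 8. Its highest level was 11.4 times its lowest, and 252 of the 1927 ranked genes (13.1%) spanned more.

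LTA had the smallest span of the 5, with a highest level 3.81 times the lowest over the libraries with at least 100 T cells. Over the 11 libraries with at least 20 T cells it ranged from 7.40 CPM in library 8 to 33.0 CPM in library 6, where only 38 T cells were kept, with a median of 11.7 CPM. IL10 was 18.5, 31.4, 8.39, 74.7 and 0 CPM in libraries 1, 2, 3, 5 and 6 and 6.23, 13.5, 7.61, 32.9, 6.57 and 0.30 CPM in libraries 8 to 13. Library 5 was the highest for IL10 and, apart from library 6, the lowest for LTB.

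**Figure D2:**
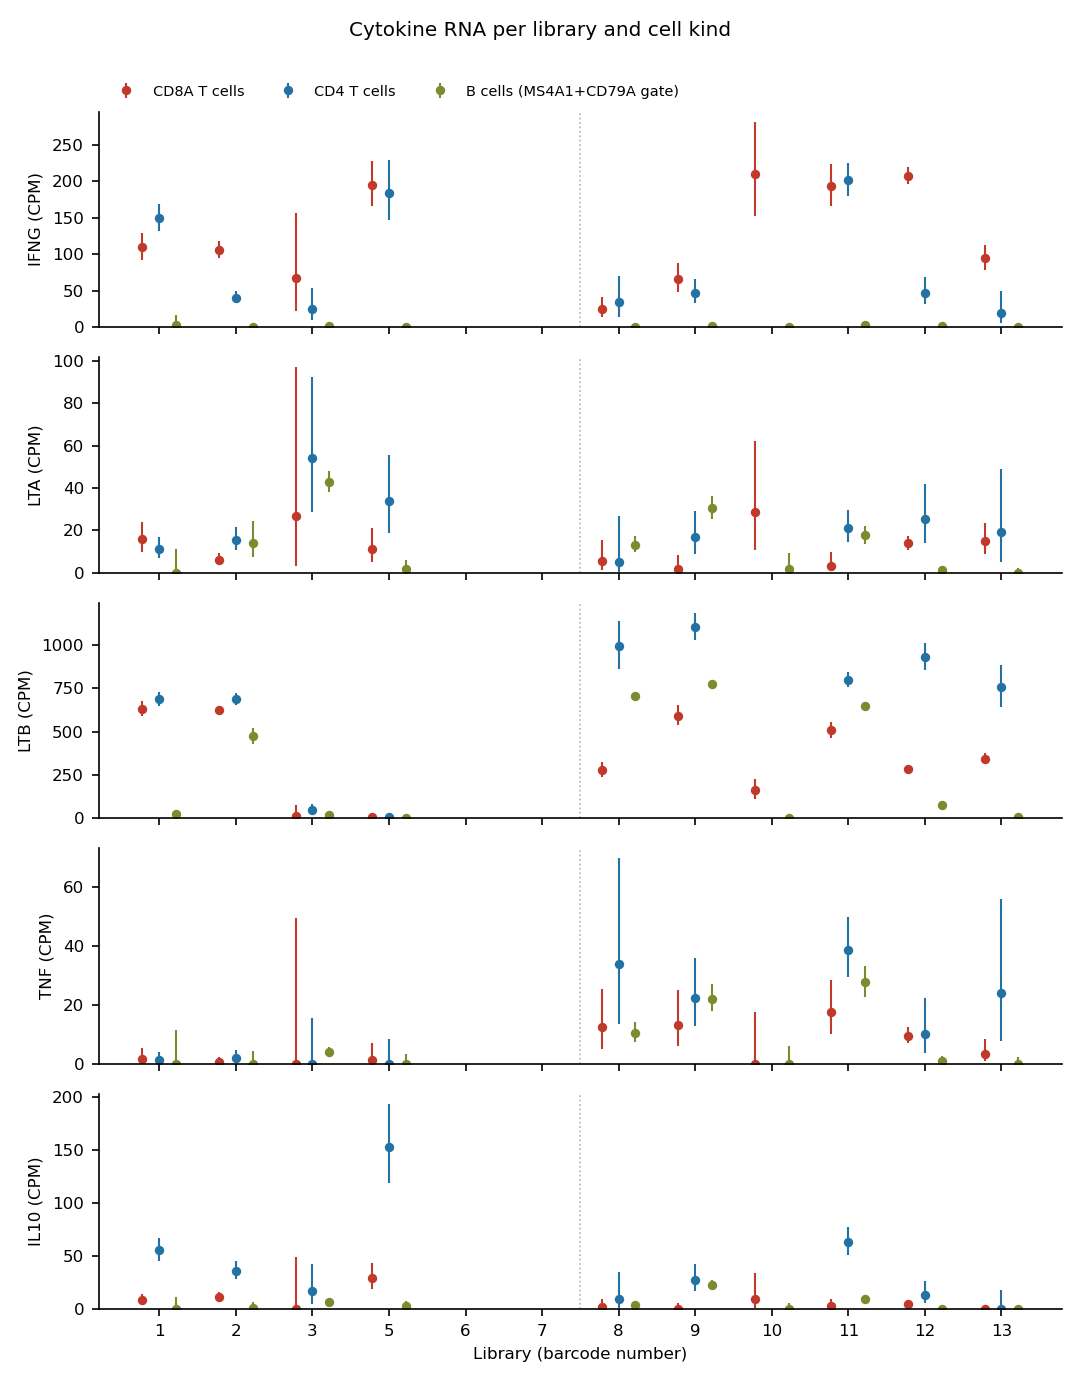
Level (y axis, CPM, from 0) of each gene in CD8A T cells, CD4 T cells and B cells of each library (x axis, barcode number; classes of under 20 cells not drawn), with exact 95% Poisson intervals; the dotted line parts the 2 barcode sets. LTB is near 0 in libraries 3 and 5 and TNF is low in the drawn libraries of set 1, whereas IFNG is high in libraries of both sets.

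CD8A and CD4 T cells were compared inside each library, where both kinds share kit and preparation. At least 20 cells of either kind were present in 9 libraries, which gave 3668 CD8A and 1927 CD4 cells. A library counts for a gene where either kind has more than 3 UMIs, unless 1 kind is at 0 and setting it to 3 UMIs leaves the direction undecided, and a gene is said to go 1 way when the log2 ratio has the same sign in every library that counts, in at least 5 libraries. Of 8422 genes, 2.33% were higher in CD8A cells in that sense, 4.52% were lower, and 6.85% went either way. The median log2 ratio of all these genes was -0.05. TNF and IL10 were lower in CD8A cells in every library that counted, and the other 3 genes had exceptions.

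IL10 had the lowest ratio. It was 8.21 CPM in CD8A and 55.5 CPM in CD4 cells of library 1, 11.6 and 36.3 in library 2, 29.4 and 153 in library 5, 0 and 27.6 in library 9, 3.26 and 63.2 in library 11, and 4.99 and 13.5 in library 12. CD4 cells were the higher kind in all 6 libraries, with a median log2 ratio of -2.52 (range -4.28 to -1.44) in which library 9 enters as a bound, with the 0 set to 3 UMIs. The 334 T cells with both coreceptor RNAs had 86.4 CPM (74.5 to 99.7) when pooled, above the 47.3 CPM (42.6 to 52.3) of CD4 cells and the 14.0 CPM of cells with neither. Library 2 gave 139 of their 188 IL10 UMIs, and the richest cell had 50. They had 135 CPM in library 2, 212 in library 5 and 43.5 in library 12, each above CD4 cells. In library 1 they had 4.86 CPM, below CD4 cells. These 334 cells had a median of 5171 UMIs, against 3334 in CD8A and 3282.5 in CD4 cells. Whether some of them are 2 cells under 1 barcode was not tested. Myeloid markers summed to a median of 9.64 CPM in CD4 and 7.04 CPM in CD8A cells, and none of the 6 markers was at 0 in either pooled kind. They were higher in CD4 cells in 8 of 9 libraries, the same direction as IL10, and were high in libraries 1, 5 and 12, at 8226, 5542 and 5560 CPM in CD4 against 1361, 1372 and 1561 CPM in CD8A cells. With every T cell that had a myeloid marker UMI left out, the median IL10 ratio was -2.52, with 5 libraries lower and 1 higher. With T cells left out that had a UMI of NCR1, KLRF1, TYROBP or FCGR3 it was -2.50, again with 5 lower and 1 higher.

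TNF was 12.3 CPM in CD8A and 33.8 CPM in CD4 cells of library 8, 13.2 and 22.1 in library 9, 17.4 and 38.5 in library 11, 9.42 and 10.2 in library 12, and 3.28 and 23.9 in library 13. Only library 2 of set 1 counted, at 0.59 and 1.84 CPM. CD4 cells were higher in all 6 libraries, with a median log2 ratio of -1.30 (range -2.87 to -0.11), but no kind in any library had more than 59 TNF UMIs. The call was lost under 5 of 28 alternative settings, with the ratio below 0 in all of them. When a kind needed at least 2 coreceptor UMIs, the ratio was -0.24 in the 3 libraries that then counted.

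LTB was 631 CPM in CD8A and 687 CPM in CD4 cells of library 1, 622 and 687 in library 2, 13.4 and 45.7 in library 3, 278 and 993 in library 8, 592 and 1106 in library 9, 509 and 800 in library 11, 284 and 933 in library 12, and 342 and 755 in library 13. CD4 cells were higher in these 8 libraries. Library 3 rests on 1 LTB UMI in 24 CD8A cells and 11 in 76 CD4 cells. Its CD8A interval (0.34 to 74.8 CPM) covers the CD4 level. In library 5 the order was the other way, at 8.58 and 4.49 CPM, which rests on 7 and 2 UMIs. The median log2 ratio was -0.90 (range -1.84 to 0.93), and without library 5 it was -1.02 with all 8 libraries lower. The difference was small in libraries 1 and 2, at -0.12 and -0.14, and large in libraries 8 and 12.

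LTA was lower in CD8A cells in 7 of 8 libraries, with a median log2 ratio of -1.18 (range -3.50 to 0.51). Library 1 was the exception, at 15.7 CPM in CD8A and 10.998 CPM in CD4 cells, with 21 and 20 UMIs. Without it the median was -1.35 and all 7 libraries were lower. The lowest ratios were those of library 9 (1 and 12 UMIs) and library 11 (3 and 32 UMIs).

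IFNG had no common direction. CD8A and CD4 cells had 105.9 and 40.5 CPM in library 2, 67.1 and 24.9 in library 3, 208 and 47.4 in library 12, and 94.2 and 19.1 in library 13. Of these, library 3 rests on 5 and 6 IFNG UMIs in CD8A and CD4 cells, and library 13 on 115 and 4. In these 4 libraries CD8A cells were more than 2 times higher. In the others the kinds were close, at 109.7 and 149.6 CPM in library 1, 195 and 184 in library 5, 24.6 and 33.8 in library 8, 65.8 and 47.0 in library 9, and 193 and 201 in library 11. The median log2 ratio was 0.49 (range -0.45 to 2.30), with 6 libraries higher and 3 lower. It was 0.94 without library 1 and 0.28 without library 2. NK-cell markers were higher in CD8A than in CD4 cells in 9 of 9 libraries, with medians of 215 and 41.5 CPM. With T cells left out that had a UMI of NCR1, KLRF1, TYROBP or FCGR3, the IFNG ratio was 0.52. KLRD1, also in the NK list, did not enter that setting.

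**Figure D3:**
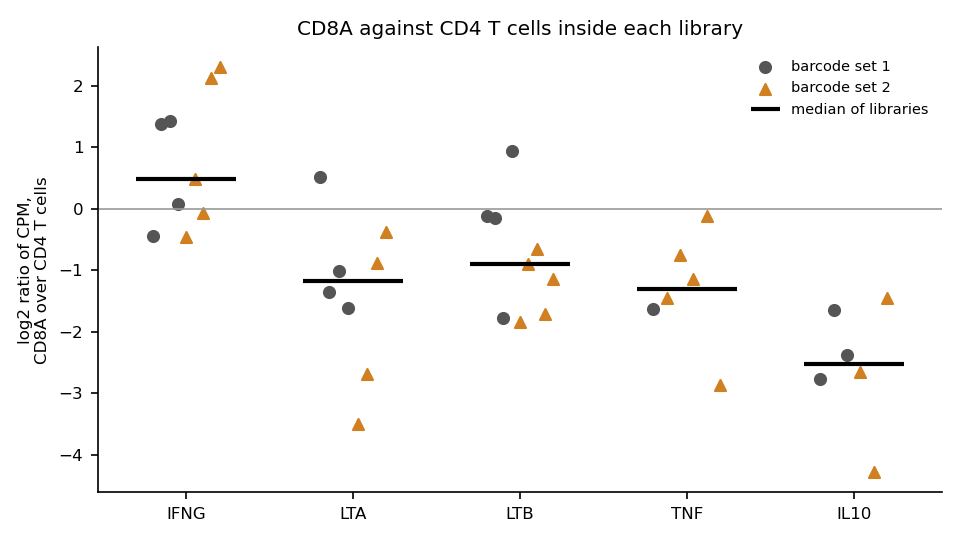
The log2 ratio of CPM in CD8A over CD4 T cells (y axis) for each gene (x axis), 1 point per library that counts, by barcode set, with the median as a bar. All IL10 and TNF points lie below 0, LTA and LTB have 1 point above 0 each, and the IFNG points lie on both sides.

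The receptors of these cytokines and the regulators of their genes were read in the same comparison. Of 8 receptor genes, 7 were matched by name, 6 were found in enough libraries, 1 was lower in CD8A cells in every library and none was higher, with a median log2 ratio of -0.34. TNFRSF1B, the second TNF receptor, was the lower one, at -0.65 in 9 of 9 libraries. IFNGR1, a chain of the interferon gamma receptor, had the highest ratio of this list, 0.66, with 7 libraries higher and 2 lower. LTBR, which is known from stromal and myeloid cells, had 0.90 CPM in CD8A and 4.66 CPM in CD4 cells.

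Of 12 regulators, 11 were found in enough libraries, 2 were lower in CD8A cells in every library and none was higher, with a median of -0.18. MAF, a transcription factor known to drive IL10, was at -2.11 in 9 of 9 libraries and BATF, an AP-1 factor of effector T cells, at -1.44 in 8 of 8. EOMES, a factor of cytotoxic cells that promotes IFNG, had the highest ratio, 1.85, with 5 libraries higher and 1 lower, 4 of them as bounds. TBX21, the classical inducer of IFNG in T helper cells, counted in no library, at 1.18 CPM in CD8A and 0.63 CPM in CD4 cells.

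Among 6 targets of NF-kappaB, the factor that TNF and lymphotoxin receptors switch on, TNFAIP3 was higher in CD8A cells in 9 of 9 libraries at 0.73, no other went 1 way, and the median was -0.02. Of 8 interferon gamma targets, 6 were matched and only IRF1 was found in enough libraries, at -0.06. Of the 2 targets of IL-10 looked at, SOCS3 had a ratio of -0.93, with 7 libraries lower and 2 higher, and BCL3 was found in too few libraries. Of 13 other T-cell cytokine genes, 5 were found in enough libraries. IL21, a helper cytokine, was lower in CD8A cells in 9 of 9 libraries at -3.28, TNFSF14, which encodes the LIGHT protein that shares the receptor LTBR, was higher in 8 of 8 at 1.71, and TGFB1 was higher in 7 of 7 at 0.51. The median of this list was 0.51.

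T cells were then divided by single marker RNAs, and each gene was compared inside each library between T cells with and without a UMI of the marker. This made 40 pairs of a gene and a marker, of which 6 went 1 way in every library. Not all 40 could, since some genes counted in fewer than 5 libraries for a marker. Shares of all genes are given for single markers, and none was taken over all markers together. Each pair was also read with the genes' UMIs thinned to 1500 a cell, where 8 went 1 way. That thinning leaves the marker calls on all UMIs, and deeper cells have a UMI of a marker more often. A reading with the marker called on the thinned UMIs too, added after the others were seen, is given after them. IFNG was higher in cells with GZMB, the gene of the killing enzyme granzyme B, in 10 of 10 libraries, at a median log2 ratio of 1.98 (range 0.54 to 4.54), where 5.93% of genes were higher in every library. It was also higher in cells with GZMK, another granzyme gene, in 9 of 9 libraries at 1.97 (range 0.01 to 2.90), beside 5.05% of genes. At 1500 UMIs the ratios were 1.61 and 1.49, and IFNG was again higher in all these libraries, beside 4.2% of genes for GZMB and 6.22% for GZMK.

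The link of IFNG to GZMB was read again inside each coreceptor kind, a comparison added after the first was seen. In CD8A cells IFNG was higher with GZMB in 7 of 7 libraries, where 6.3% of genes were. It was 134 against 70.6 CPM in library 1, 135 against 15.7 in library 2, 56.9 against 12.2 in library 8, 93.1 against 60.1 in library 9, 319 against 139 in library 11, 258 against 67.7 in library 12 and 128 against 11.4 in library 13. In CD4 cells no such common direction was seen. IFNG was higher with GZMB in libraries 1, 2 and 12 and lower in libraries 9 and 11, where it was 9.77 against 53.1 CPM and 120.4 against 223 CPM. Library 9 rests on 1 IFNG UMI with and 33 without GZMB, and library 12 on 16 and 12.

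IL10 went with GZMB in the CD4 cells of most libraries. It was 69.6 CPM with and 9.19 without GZMB in library 2, 108 and 14.5 in library 9, 269 and 8.26 in library 11, and 45.5 and 4.36 in library 12. Of these, library 9 rests on 11 and 9 IL10 UMIs and library 12 on 6 and 2. Library 1 was the exception, at 40.4 CPM with and 74.6 CPM without GZMB. The median log2 ratio was 2.92 over these 5 libraries, and 4.2% of genes were higher in every library. Over all T cells the IL10 ratio for GZMB was 2.21, higher in 8 of 9 libraries, and at 1500 UMIs it was 2.26 and higher in 8 of 8, beside 4.2% of genes. In cells with CCL20 or IL21, genes of gut helper T cells, IL10 was higher in 7 of 8 libraries at 2.22, and at 1500 UMIs in 8 of 8 at 1.67, beside 5.02% of genes.

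The lymphotoxins went with other markers. LTB was higher in cells with TNFRSF4, the gene of the costimulatory receptor OX40, in 8 of 8 libraries at 0.96 (range 0.17 to 2.04), where 10.2% of genes were, and at 1500 UMIs in 8 of 8 at 0.71, beside 7.37% of genes. In cells with CCR7, the homing receptor of naive and recirculating T cells, LTB was higher in 9 of 10 libraries at 0.65, and at 1500 UMIs in 9 of 9 at 0.76, beside 2.23% of genes. In CD4 cells LTB was lower with GZMB in 6 of 6 libraries at -0.53 (range -0.78 to -0.33), where 4.62% of genes were lower in every library. In CD8A cells it had no common direction for GZMB, with 4 libraries higher and 3 lower.

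LTA was higher in cells with CCL20 or IL21 in 9 of 9 libraries at 0.94 (range 0.16 to 2.62), where 6.3% of genes were, and at 1500 UMIs in 8 of 8 at 1.34. LTB was also higher in those cells in 9 of 9 libraries, at 0.36, but at 1500 UMIs only in 8 of 9. LTA was higher with CCR7 in 10 of 10 libraries at 0.42, beside 3.26% of genes, but at 1500 UMIs the ratio was 0.25, with 7 libraries higher and 2 lower. IFNG in cells with CCR7 had a ratio of -0.89, with 7 libraries lower and 3 higher.

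TNF had no common direction for any marker when all UMIs were used. It was lower with GZMB in 6 of 7 libraries at -0.67 and higher with GZMK in 5 of 6 at 0.79. At 1500 UMIs the ratio for GZMK was 1.57, higher in 5 of 5 libraries, on 36 TNF UMIs in the cells with GZMK and beside the 6.22% of genes above. The markers ITGAE, MKI67 and KIR2DL4, which mark resident, dividing and NK-receptor-bearing cells, gave none of the 5 genes the same direction in at least 5 libraries in any of the 3 readings. For MKI67 and KIR2DL4 several pairs could not, because the gene counted in fewer than 5 libraries. With all UMIs, LTA, TNF and IL10 counted in 4, 1 and 4 libraries for KIR2DL4. With the marker called at 1500 UMIs, KIR2DL4 left only 2 libraries to compare, and for MKI67 only IFNG counted in 5. No absence of a link can be read from those pairs. Of all genes, 2.06% went 1 way for ITGAE, 14.4% for MKI67 and 8.33% for KIR2DL4. IL10 was lower with KIR2DL4 in 4 of 4 libraries, 2 of them as bounds, which is too few to count.

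With the marker also called at 1500 UMIs, 7 of the 40 pairs went 1 way. No pair of KIR2DL4 could, for MKI67 only that of IFNG could, and IL10 counted in only 4 libraries for TNFRSF4. IFNG was higher with GZMB in 10 of 10 libraries at 1.66, where 4.42% of genes were, and with GZMK in 7 of 7 at 1.36, where 6.92% were. LTB was higher with TNFRSF4 in 7 of 7 libraries at 0.67 (9.04% of genes), with CCR7 in 8 of 8 at 0.63 (2.55% of genes) and with CCL20 or IL21 in 8 of 8 at 0.62 (6.32% of genes). IL10 was higher with CCL20 or IL21 in 8 of 8 libraries at 2.04, and TNF with GZMK in 5 of 5 at 1.71. Other pairs lost their single direction. LTA was higher with CCL20 or IL21 in 7 of 8 libraries at 1.32 and with CCR7 in only 5 of 8 at 0.03, and IL10 with GZMB in 7 of 8 at 1.61.

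**Figure D4:**
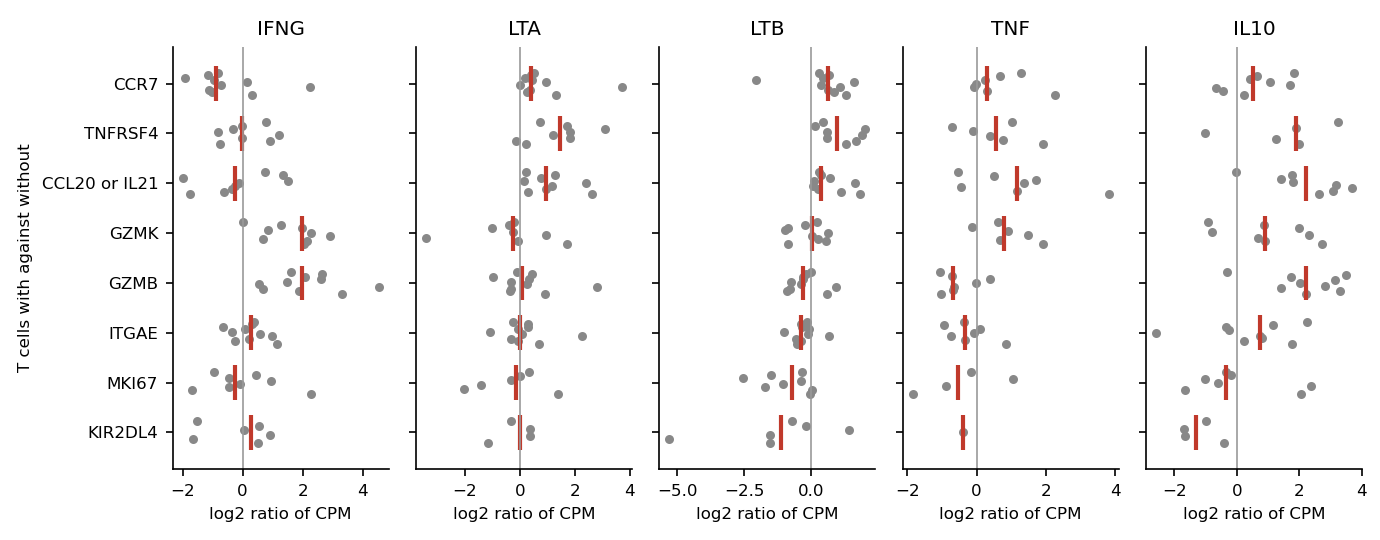
The log2 ratio of CPM (x axis, own scale per panel) between T cells with and without a UMI of a marker (y axis), 1 grey point per library that counts and the median as a red bar, all UMIs used. For IFNG every point of GZMB and GZMK is above 0, and for LTB every point of TNFRSF4 is.

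Whether single T cells held several of these RNAs was read at 1500 UMIs a cell. LTB and LTA, whose proteins join in 1 complex, were found in the same cells more often than the share of LTB alone would give. Of 239 T cells with an LTA UMI, 64.0% (57.6 to 70.1) had LTB, against 42.6% of cells without LTA weighted to the same mix of libraries. The share was higher with LTA in 6 of 6 libraries with at least 20 LTA-positive cells. Inside CD8A cells the shares were 41.8% (28.7 to 55.9, on 55 cells with LTA) and 29.4%, so the interval covers the second share. Inside CD4 cells they were 71.9% (58.5 to 83.0, on 57 cells) and 47.9%. LTB was also found in 71.4% (64.3 to 77.9) of 182 cells with TNF, against 49.3% of cells without, and in 4 of 4 libraries.

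IFNG and LTB went apart in most libraries. Of 1115 T cells with IFNG, 36.6% (33.8 to 39.5) had LTB, against 44.5% of cells without IFNG in the same library mix, and the share was lower in 5 of 7 libraries. In CD8A cells the shares were 26.3% (22.3 to 30.5) and 34.8%. In CD4 cells they were 50.6% (42.9 to 58.3) and 54.6%, so the interval covers the second share. IFNG and TNF were together in 23 cells, 2.06% (1.31 to 3.08) of those with IFNG, against 1.66% of cells without, a difference not detectable at this depth. The same held for IL10 over all T cells, at 1.61% of cells with IFNG and 1.65% of those without. In CD4 cells the IL10 shares were 1.16% (0.14 to 4.14, on 2 cells with both) and 4.77%, lower with IFNG in 3 of 3 libraries. In CD8A cells they were 1.31% (0.48 to 2.84, on 6 cells with both) and 0.54%, higher in 4 of 6 libraries and lower in 1. With all UMIs the shares were 6.43% and 6.52% in CD4 cells and 2.64% (1.64 to 4.01) and 1.13% in CD8A cells.

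**Figure D5:**
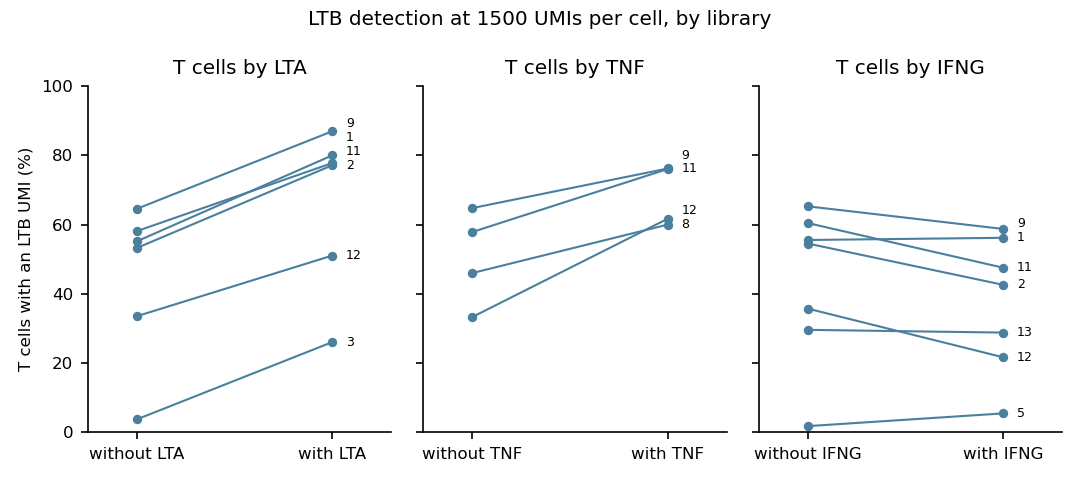
Share of T cells with an LTB UMI (y axis, %) among cells without and with LTA, TNF or IFNG (x axis), 1 line per library with at least 20 positive cells, numbered, at 1500 UMIs a cell. All lines go up for LTA and TNF, and 5 of 7 go down for IFNG.

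The 3 genes most like each member were sought over 29 sums of CD8A, CD4 and neither T cells from 10 libraries, after centring log2(CPM + 10) inside each library, among 4120 genes. For IFNG they were MAPK1IP1L, SSBP4 and TAF7, at Pearson's r of 0.87, 0.85 and 0.83. For LTA they were CEP295 (0.83), FDFT1 (0.82) and TBCA (0.81), for LTB ITGB2 (0.89), TRPS1 (0.87) and ADD3 (0.86), and for TNF BANP (0.81), RCAN3 (0.80) and UNC119 (0.76). For IL10 they were CTSB (0.79), SMPDL3A (0.78) and the helper cytokine gene IL21 (0.78). The sums share libraries and differ in depth, and the best of 4120 genes would reach a high r in part by choice, so these values are a description.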

How the data were processed

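The deposited raw matrix holds the authors' UMI counts for every gene and barcode, and the file headers name Cell Ranger 3.1.0 as the tool that wrote it; no source used here gives the genome build, so no coordinates are printed. Seurat 3.1 is named without a role in the submitters' processing notes. The authors' list of 20606 kept cells was used, of which 20567 remained without library 4. Of 57086 barcodes, none was removed as a doublet by a caller; cells passing the T and B gates were left out instead. Kept cells had at least 1502 UMIs and a median of 3412. Of 34628 genes, 23811 carry a symbol in the file and 695 took one from a gene name table; KRT8, IL10RB, GBP1 and GBP2 were not matched.

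UMIs were summed per library and cell kind and divided by the summed total (numpy 2.4.6, scipy 1.17.1, pandas 2.3.3). A kind at 0 was set to 3 UMIs and its ratio taken as a bound. Thinning drew 1500 UMIs per cell. The remaining gates were plasma (JCHAIN, MZB1, DERL3, at least 10 UMIs), myeloid (at least 10), NK (NCR1, KLRD1, TYROBP, KLRF1, FCGR3, at least 3) and epithelial (EPCAM, KRT18, KRT19, at least 5). Beside the myeloid and NK lists, plasma markers had medians of 3841 CPM in CD8A and 1233 in CD4 T cells, B markers 22.9 and 13.7, and epithelial markers 5.05 and 0.92. T cells with B or plasma markers were left out in 1 alternative; the part of epithelial markers was not tested. The ratio script was tested on simulated data.

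The genes named are the 5 members, of each pathway list those with the highest and lowest median ratio or 1 direction, and the 3 most similar genes. Members and lists were chosen with earlier results of these data known. Any label-group comparison was left out because barcode numbers are not tied to labels.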

Additional observations from a re-analysis of the deposited data

Results flagged for a closer look

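The 5 genes were also present in barcodes outside the authors' kept cells, which entered only 1 alternative setting. In 5836 such barcodes that passed the T gate, with a median of 1713 UMIs, IFNG was at 71.3 CPM (interval 66.2 to 76.8), LTA at 18.2 (15.7 to 21.1), LTB at 484 (471 to 498), TNF at 13.1 (10.9 to 15.6) and IL10 at 11.5 (9.47 to 13.8). These levels are above the limit of 0.302 CPM that 3 UMIs allow. In 1797 such barcodes that passed the B gate, IFNG was at 0.64 CPM and LTB at 335 CPM.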

How the results depend on the processing

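The log2 ratios and levels were recomputed without each of 12 libraries in turn and under up to 16 other settings. All median ratios over libraries kept their sign. Leaving out 1 library moved the CD8A over CD4 ratio between 0.28 and 0.94 for IFNG, -1.35 and -1.01 for LTA, -1.02 and -0.78 for LTB, -1.45 and -1.15 for TNF, and -2.66 and -2.38 for IL10. The median T-cell level moved between 72.3 and 91.7 CPM for IFNG, 11.7 and 12.98 for LTA, 349 and 425 for LTB, 2.38 and 3.46 for TNF, and 8.001 and 10.9 for IL10. The count of genes higher in CD8A cells moved between 196 and 238, and lower between 373 and 487. With kinds set by at least 2 UMIs, the TNF ratio was -0.24; fewer libraries counted, 3 in place of 6. That setting also gave IFNG 1 direction, at 0.51 and higher in 6 of 6 libraries. LTB was then at -0.33, with 3 libraries higher and 3 lower, and LTA at -1.76, with 2 higher and 3 lower. TNF lost its call there, at 1500 UMIs a cell (-0.84), with all deposited barcodes (-1.06), when libraries were scaled by the median ratio of genes (-1.18) and without T cells carrying B or plasma markers (-1.73). IL10 lost its call in the last of these (-1.80, 1 library higher and 5 lower). It also lost it in the settings that leave out T cells with myeloid markers, or with NCR1, KLRF1, TYROBP or FCGR3. Those 2 settings, the MS4A1 split and leaving out libraries 3 and 5 together were chosen after seeing the data. Without libraries 3 and 5, LTB was lower in CD8A cells in 7 of 7 libraries. No paired analysis was possible because the labels' replicate numbers cannot be tied to libraries; CD8A and CD4 cells were paired by library as a description, and no test was run on those ratios. Low counts limit TNF, LTA and IL10 most.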

Other observations

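Library 4, which shares 5323 barcodes with library 6, gave like values over all its barcodes that passed the T gate. LTB was at 2.55 CPM in 260 such barcodes of library 4 and at 3.25 CPM in 288 of library 6, TNF had no UMI in either, and IFNG was at 102 and 97.5 CPM. The LTB levels rest on 1 and 2 UMIs, with intervals of 0.065 to 14.2 and 0.39 to 11.7 CPM. Both lie below the limits of 7.66 and 4.87 CPM that 3 UMIs allow.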
